A study of Rattus norvegicus with 10 samples.

Results

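The regions described here are 1264 N6-methyladenosine (m6A) peaks that were listed in hypertrophic cardiomyocytes and had no peak of quiescent cardiomyocytes anywhere near them. They were chosen by position from the deposited lists: a hypertrophic peak was taken when the nearest quiescent peak on its chromosome lay more than 50000 bp away, edge to edge, at any score. The 1264 peaks were 1.93% of the 65539 hypertrophic peaks and 7.46% (Wilson 95% interval 7.08 to 7.87%) of the 16939 hypertrophic peaks without an overlapping quiescent peak. They are called far peaks below, and the 15675 remaining hypertrophic-only peaks, which lay within 50000 bp of a quiescent peak, are called beside peaks. The positions of both lists made this choice, so the absence of quiescent peaks is the rule and not a result.

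The cells were primary cardiomyocytes from rat pups of 1 to 3 days, kept in M199 medium. Hypertrophic cells received 2% bovine serum and quiescent cells, called normal in the deposited lists, received none. The study holds 10 libraries, 2 in each of 5 groups: from both conditions an input and an m6A immunoprecipitate (IP), and from hypertrophic cells also an IP with normal IgG. Each condition is represented by 1 list called against that IgG control, so no value has a replicate error, and the lists were compared by description, with no test. No source used here says whether a list rests on both IP libraries or on 1.

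m6A is a methyl mark that a nuclear enzyme complex places on adenosines of messenger and long noncoding RNA, and that reader proteins bind to influence splicing, export, translation and decay. In an m6A immunoprecipitation, fragments carrying the mark are enriched with an antibody and pile up as peaks on the transcribed genome. A peak made by the mark therefore needs both a transcript and the mark, and a site listed in serum-treated cells alone may differ in either. The lists were called against IgG of hypertrophic cells and not against input. Whether each listed peak carries the mark was not tested. Serum is a classical growth stimulus for cultured neonatal cardiomyocytes, which enlarge in response. Fewer cells of a type and less RNA per cell cannot be told apart in such bulk samples, and input RNA at these loci was not analysed here. Positions are in the rat build rn4, counted from 1. Gene names, gene regions and sequences at these positions were not analysed here, and the labelled cell type was not checked against marker genes for the same reason.

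Far peaks mostly had low scores. The deposited score has the layout of MACS 1.4 output, in which it rises with the significance of the pileup over the control, and every listed peak scores 50 or more. The median far peak scored 68.1 (exact binomial interval of the median 66.0 to 69.7), with quartiles of 57.2 and 89.4 and a highest score of 615. Beside peaks had a similar median of 70.1 (interval 69.7 to 70.8), and shared hypertrophic peaks, those that overlapped a quiescent peak, had one of 160 (159.78). Of the far peaks 439 (34.7%) scored below 60, within 10 points of the lowest listed score.

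Few far peaks were strong. A score of at least 100 was held by 218 of them (17.2%, Wilson interval 15.3 to 19.4%), against 58.6% of all hypertrophic peaks and 21.9% of beside peaks. A score of at least 200 was held by 21 (1.66%, interval 1.09 to 2.53%), against 31.2% of all hypertrophic peaks and 2.56% of beside peaks. A score of at least 400 was held by 5 far peaks (0.396%, interval 0.169 to 0.923%), against 15.7% of all hypertrophic peaks and 0.274% of beside peaks. The intervals of far and beside peaks overlap at 400, and also at 200, where that of beside peaks was 2.33 to 2.82%. At 100 the far share lay below the beside share. None of the far peaks reached 1000, a score held by 0.0702% of beside peaks; the Wilson upper limit for 0 of 1264 is 0.303%, so no difference was detectable. The rule used the same lists that hold these scores, so the shares describe the chosen peaks and support nothing about them.

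The strongest far peak was chr8:119014619-119015200, 582 bp wide, which scored 615 and rose to a summit height of 86. Summit height is how high reads piled up at the summit, as deposited and in a scaling that is not stated. Its nearest quiescent peak began 79855 bp downstream and scored 166, and the closest other hypertrophic peak, 41702 bp away, scored 58.7.

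Next came chr1:99406668-99409474, a broad peak of 2807 bp that scored 481, reached a height of 125 and lay 55984 bp from quiescent peaks. It stood alone, with no other hypertrophic peak within 50000 bp. The third, chr2:228549323-228549677, scored 454 with a height of only 32, and the closest other hypertrophic peak, 43154 bp away, scored 197. The fourth, chr6:47898691-47900273, scored 426, reached a height of 88 over 1583 bp and stood alone, 89494 bp from a quiescent peak. The fifth, chr4:111168963-111169527, scored 425 with a height of 73. A further far peak scoring 101, with a height of 36, lay 12578 bp from it, and the nearest quiescent peaks were 99446 bp away on the left and 536306 bp away on the right. These 5 peaks are the only far peaks that scored over 400, and each stood on a different chromosome.

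The scores ranked 6 to 10 lay between 271 and 314. The peak at chr9:62844146-62844428 scored 314 with a height of 23, and a second far peak of score 79.9 lay 1026 bp before it. At chr7:118454466-118454786, also with a score of 314 but a height of 51, 2 more far peaks followed within 676 bp, with scores of 52.5 and 139. The remaining 3 were chr8:88911373-88911865 (score 308, height 26), chr15:68891282-68891603 (score 304, height 77) and chr3:53624669-53624981 (score 271, height 35). Of the 10 highest-scoring far peaks, 5 belonged to runs of far peaks, 3 had only beside peaks within 50000 bp, and 2 stood alone. Strong far peaks were thus found both as isolated sites and as members of small groups.

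Most tall far peaks scored low, as most far peaks did. The median summit height was 11 (interval 10 to 11), with quartiles of 8.75 and 16, and 1032 far peaks (81.6%) were lower than 20. Heights of at least 50 were reached by 70 far peaks (5.54%), against 18.9% of all hypertrophic peaks and 7.08% of beside peaks. Of those 70, 54 (77.1%) scored below 100, against 82.8% of all far peaks, and 6 (8.57%, interval 3.99 to 17.5%) scored 200 or more, against 1.66%. High scores were thus commoner among tall far peaks than among far peaks in general, and median height rose with score. The 2 tallest, chr1:214549344-214550737 and chr6:79765299-79767003, both reached 164, the largest height in either list, and scored 50.8 and 50.6. The largest height was also 164 in the beside and shared sets and in each quiescent set. Whether deposited heights have a ceiling at that value was not tested. They were broad, at 1394 and 1705 bp. The broadest far peak of all, chr8:113470852-113475649, spanned 4798 bp with a height of 161 and a score of 68.7. The 10 widest far peaks, from 1226 to 4798 bp, had heights of 74 to 164, and 6 of them scored below 100. Among the 10 tallest the median score was 74.6, and only chr1:99406668-99409474 scored over 200.

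**Figure D1:**
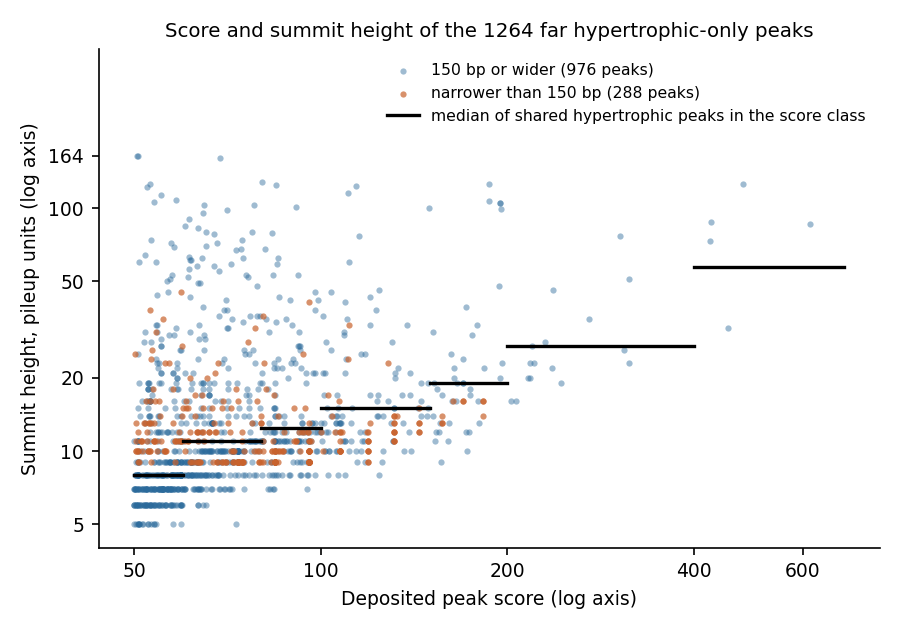
Each point is 1 of the 1264 far hypertrophic-only peaks, with the deposited score on the horizontal log axis and the summit height on the vertical log axis; orange points are narrower than 150 bp, and black lines are the median heights of shared hypertrophic peaks in classes of score. Most points lie at scores under 100 and heights under 20, and only 5 peaks lie beyond a score of 400. Tall peaks, with heights of 50 to 164, also lie mostly at scores under 100.

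At equal score below 400, far peaks were about as tall as other hypertrophic peaks. From a score of 50 to below 60 the median height was 8 for 439 far peaks, 8 for beside peaks and 8 for shared peaks. From 80 to below 100 it was 11, 12 and 12.5, from 100 to below 150 it was 13, 14 and 15, and from 200 to below 400 it was 23 for 16 far peaks, 26 for beside peaks and 27 for shared peaks. The medians of far peaks were thus equal to or a little below the others up to 400. From 400 upward the order was the other way, with a median height of 86 for the 5 far peaks, 54 for beside peaks and 57 for shared peaks. The mirrored set in quiescent cells, 3120 quiescent-only peaks more than 50000 bp from any hypertrophic peak, was lower at the same scores, with medians of 6, 9, 10 and 13 in those classes. Quiescent-only peaks within 50000 bp of a hypertrophic peak had medians of 7, 9, 11 and 14 in those classes. Quiescent peaks that overlapped a hypertrophic peak had medians of 8, 11, 14 and 23. Score and height scales of the lists may differ, which was not tested.

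Far peaks were narrow, and their widths fell into a pattern that other hypertrophic peaks showed only faintly. The median width was 213 bp (interval 207 to 218), against 263 bp for beside peaks and 380 bp for shared peaks. The commonest class of 10 bp began at 120 bp and held 85 far peaks (6.72%), with a second, broader maximum near 210 bp, where the class held 66. Widths below 150 bp, a limit chosen after the widths were seen, made up 288 of the far peaks (22.8%, Wilson interval 20.6 to 25.2%), against 4.51% of all hypertrophic peaks, 6.60% of beside peaks and 3.36% of shared peaks. The share stood at 22.3% among far peaks scoring below 100 and at 25.2% among those scoring 100 or more, so the narrow peaks were not gathered at the lowest scores. In the mirrored quiescent set it was 12.2% (interval 11.1 to 13.4%). At the other end, 19 far peaks were wider than 1000 bp and 2 were wider than 2000 bp.

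**Figure D2:**
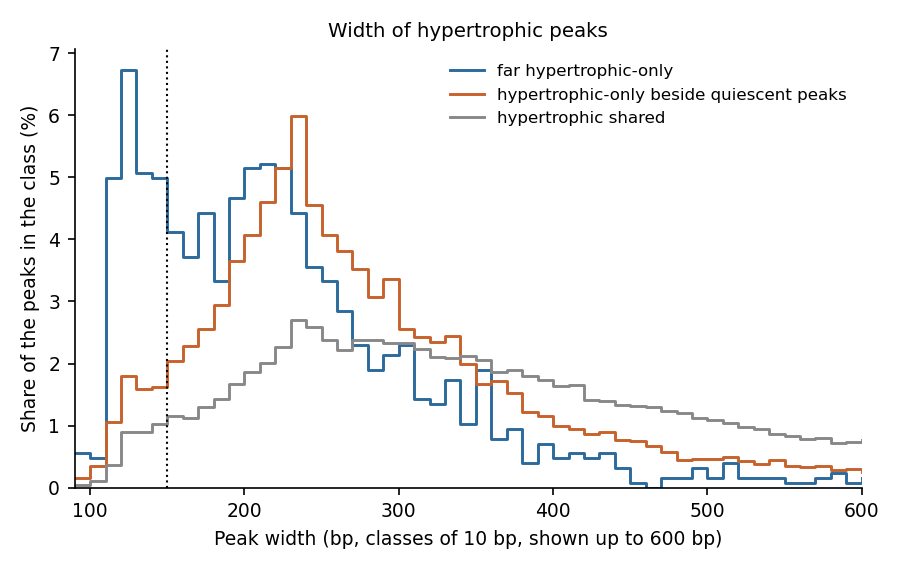
Share of peaks (vertical axis, percent) in width classes of 10 bp (horizontal axis, shown up to 600 bp) for far, beside and shared hypertrophic peaks; the dotted line marks 150 bp. The far peaks have a maximum in the class from 120 bp, at 6.72%, where beside peaks stand at 1.81% and shared peaks at 0.893%, and a second maximum near 210 bp.

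The narrow far peaks were alike in further respects. All 288 had their summit in the middle 10% of their width, which was also so for all narrow peaks of the beside and shared sets, while 26.2% of the wider far peaks did. Their median score was 75.2, above the 65.2 of the 976 wider far peaks, and both groups had a median height of 11. None of the 288 exceeded a score of 183 or a height of 45, and 0 of them were among the 21 far peaks scoring at least 200.

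Identical scores recurred on many chromosomes. The value 95.78 was held by 25 far peaks on 15 chromosomes, all of them narrow, with heights of 9 to 11 and widths of 113 to 148 bp. The value 84.52 was held by 19 far peaks on 12 chromosomes, 16 of them narrow, with heights of 9 to 12, and 73.63 by another 19. In all, 8 score values were each held by 10 or more far peaks, together 131 peaks, and 73 of the 288 narrow peaks (25.3%) carried one of them, against 5.94% of the wider far peaks. One of the 8 values was held by 10.4% of far, 3.66% of beside and 1.33% of shared peaks. The value 95.78 alone was held by 1.98% of far, 0.549% of beside and 0.191% of shared peaks. The values were picked for their frequency among far peaks, so these shares are a description.

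The narrow share grew with distance from quiescent peaks. Among hypertrophic-only peaks within 1000 bp of a quiescent peak 3.73% were narrow, and from 20000 to 50000 bp 10.3% were. Among far peaks the share was 16.1% of 576 peaks up to 75000 bp, 22.9% of 249 up to 100000 bp, 26.9% of 316 up to 200000 bp and 43.1% of 123 beyond. Over the same far classes the median width went from 230 to 213, 203 and 161 bp, while the median score stayed between 66.3 and 68.5. Quiescent-only peaks showed a smaller rise by the same classes, from 3.69% within 1000 bp to 18.4% of 483 peaks beyond 200000 bp.

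**Figure D3:**
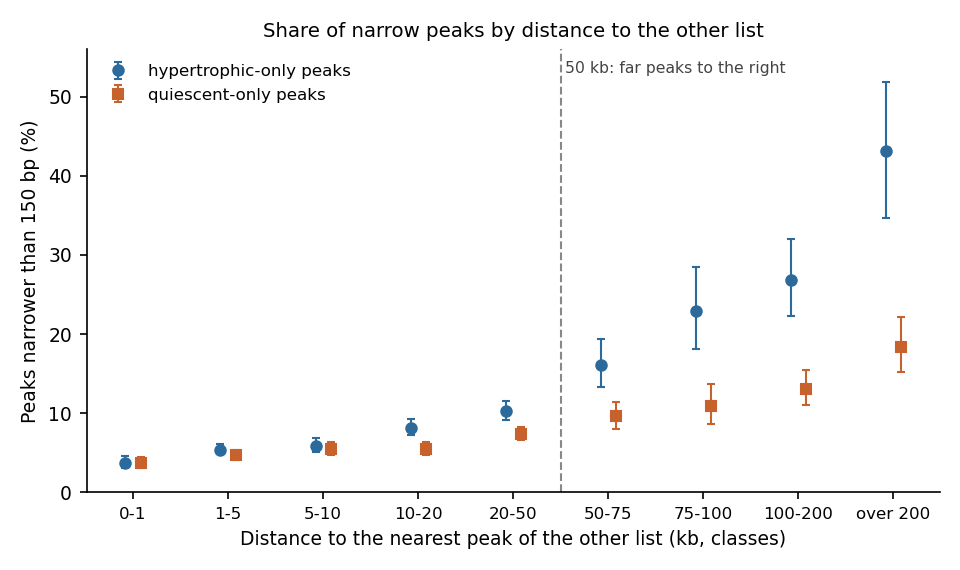
Share of peaks narrower than 150 bp (vertical axis, percent) in classes of distance to the nearest peak of the other list (horizontal axis, kb), for hypertrophic-only and quiescent-only peaks, with Wilson 95% intervals that cover counting error only. To the right of the dashed line, at 50 kb, are the far peaks: the hypertrophic share climbs from 16.1% to 43.1%, and the quiescent share from 9.60% to 18.4%.

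Isolation within the hypertrophic list moved with narrowness too. Of the far peaks 814 (64.4%, Wilson interval 61.7 to 67.0%) had no other hypertrophic peak within 50000 bp, against 7.48% of all hypertrophic peaks; far peaks lie by their choice in regions with few peaks, so an excess of this kind is built into the rule. Among these 814 the narrow share was 29.1% (interval 26.1 to 32.3%), and among the 450 far peaks with a hypertrophic neighbour it was 11.3% (interval 8.73 to 14.6%). Equally isolated beside peaks had a narrow share of 24.4% (interval 20.8 to 28.5%, 475 peaks) and equally isolated shared peaks one of 12.7% (interval 11.6 to 13.8%, 3613 peaks). Among isolated peaks the intervals of far and beside peaks thus overlap, and the interval of shared peaks lies below both. Among peaks with a hypertrophic neighbour they do not: the 11.3% of far peaks stood against 6.05% (interval 5.68 to 6.44%) of beside peaks and 2.61% of shared peaks.

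Most of the 10 farthest peaks were of this narrow kind, as were 43.1% of the 123 far peaks beyond 200000 bp. The distance to a quiescent peak had its median at 79854 bp and its quartiles at 60338 and 120834 bp. In all, 123 far peaks (9.73%) lay more than 200000 bp away. The largest distance, 840099 bp, belonged to chr18:84909041-84909171, which scored 84.52 with a height of 9 and a width of 131 bp. Its neighbour chr18:84980586-84980714, 768556 bp from a quiescent peak, had the same score and height at a width of 129 bp. Both lay in the longest stretch without quiescent peaks, 2120198 bp on chromosome 18, which held 3 further far peaks with scores of 51.7 to 71.5. The third farthest, chr16:88662795-88662916, again scored 84.52 with a height of 9, and formed a run with chr16:88711567-88711958, a peak of 392 bp that scored 58.5 and was 32 high. Of the 10 farthest peaks 8 were narrow, and the highest score among them was 152, at chr9:50102833-50103094, which was 31 high and lay 601848 bp from quiescent peaks. Scores of at least 200 were held by 0 of the 123 far peaks beyond 200000 bp and by 1.66% of all far peaks, a difference not detectable with 123 peaks.

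At the limit of the rule itself, the 3 far peaks closest to the limit lay 50014, 50054 and 50140 bp from a quiescent peak and scored 61.4, 203 and 54.7, with heights of 90, 16 and 22. The 3 hypertrophic-only peaks just short of it, at 49993, 49941 and 49854 bp, scored 59.6, 103 and 62.3, with heights of 62, 16 and 101.

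Most far peaks stood alone, and runs were short. Far peaks with at most 50000 bp between neighbours were joined into runs; by construction no quiescent peak can lie inside one. This gave 147 runs with 344 far peaks (27.2%, Wilson interval 24.8 to 29.7%) and 920 far peaks outside any run. The runs had 2 members in 107 cases, 3 in 31, 4 in 8 and 5 in 1. Their median span was 16316 bp, from 361 to 70428 bp, and 102 of the 197 spaces between neighbours were under 10000 bp, of which 30 were under 1000 bp. Members of runs had a median score of 68.1, close to the 67.3 of far peaks that stood alone, and 10.2% of them were narrow. The mirrored quiescent set had more of its peaks in runs, 37.4% (interval 35.7 to 39.1%), and its largest run had 8 members. It was also denser, with 3.34 peaks per Mb of sequence more than 50000 bp from the other list, against 1.58 for far peaks. Denser peaks are joined more often at a fixed gap, and the shares in runs were not adjusted for this.

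The only run of 5 lay on chromosome 1 from 220513614 to 220553994. Its members scored 65.3, 84.7, 93.2, 80.5 and 89.2 in order along the chromosome, with heights of 7, 8, 12, 11 and 42, so the scores were even and the last member was by far the tallest. A sixth far peak, of score 60.1, lay in the same stretch without quiescent peaks but too distant to join. On chromosome 5, from 108490647 to 108532207, 4 members scored 50.8, 149, 162 and 72.2, and the second reached a height of 100 over 858 bp. All 4 were at least 128189 bp from a quiescent peak, the largest such distance among the 10 biggest runs. On chromosome 3, from 55610218 to 55633925, 4 members scored 140, 57.8, 86.8 and 145 with heights of 9 to 22. The most compact of the large runs, on chromosome 1 from 185025531 to 185027916, packed 4 members into 2386 bp, with scores of 51.9 to 94.96 and heights of 5 to 8.

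**Figure D4:**
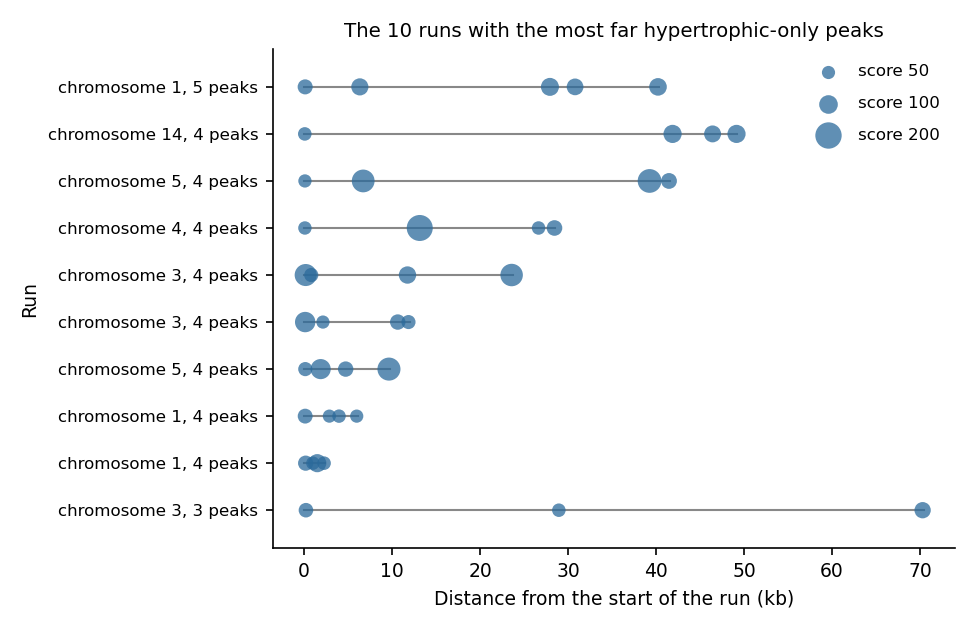
The 10 runs with the most far hypertrophic-only peaks, 1 per row, with the wider run first among equals, drawn from the start of each run (horizontal axis, kb); each dot is a member, and its area is proportional to its score. Spans go from 2386 bp to 70428 bp, and the largest dots score 195 on chromosome 4 and 162 and 153 in the 2 runs on chromosome 5.

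On chromosome 4, 7 far peaks lay in 1 stretch of 346361 bp without quiescent peaks, from 83461343 to 83807703, the most of any stretch. Along the chromosome they scored 70.31, 52.49, 194.99, 51.92, 194.99, 52.49 and 70.31, with heights of 9, 8, 105, 28, 105, 8 and 9. The first 3 and the last 3 were thus mirror images: widths of 230, 225 and 869 bp and spacings of 1581 and 12956 bp were the same on both sides, in reversed order, and the outer members lay 52475 and 52518 bp from the quiescent peaks flanking the stretch. The last 4 of the 7 formed a run. A second such case lay at chr9:102744362-102744611 and chr9:102744851-102745007, whose scores of 106.73 and 156.82, heights of 8 and 17, widths of 250 and 157 bp and spacing of 239 bp recurred exactly at chr2:46180013-46180262 and chr2:46180502-46180658, a pair of beside peaks. These were the only neighbouring pairs of far peaks whose values and spacing all recurred in the hypertrophic list; they involve 8 far peaks (0.633%), and pairs of this kind held 26 beside peaks (0.166%) and 66 shared peaks (0.136%). The pair counts leave out neighbouring far peaks that only matched each other in score, height and width, although several such neighbours formed runs. Whether the same reads were counted at both places, or at such matching neighbours, was not tested. Counting the mirrored members once leaves 4 far peaks in the chromosome 4 stretch and 6 in the next fullest ones.

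Far peaks were found in a minority of the long stretches between quiescent peaks. Between neighbouring quiescent peaks there were 6378 stretches longer than 100000 bp, 1435 Mb in all, and 959 of them (15.0%, Wilson interval 14.2 to 15.9%) held at least 1 far peak. In 756 stretches there was 1 far peak, in 132 there were 2 and in 51 there were 3. Occupied stretches were longer, with a median of 242705 bp against 156610 bp for empty ones. A far peak must lie more than 50000 bp from the quiescent peaks on both sides. Stretches little longer than 100000 bp thus have almost no room for one, so a difference of this kind is built into the rule. The part of the genome more than 50000 bp from quiescent peaks, between the first and the last of them on each chromosome, came to 798 Mb and held 1.58 far peaks per Mb, against 24.1 hypertrophic peaks per Mb over the spanned chromosomes. The mirrored set reached 3.34 peaks per Mb of its own room, and its 3120 peaks were 4.56% of the quiescent list, 2.47 times the number of far hypertrophic-only peaks. Scores of at least 200 were held by 265 peaks of the mirrored set (8.49%) and by 21 far peaks (1.66%). Among quiescent-only and hypertrophic-only peaks within 50000 bp of the other list the shares were 7.74% and 2.56%. A gap in this direction was thus not particular to the far sets. Over the whole quiescent and hypertrophic lists the shares were 34.1% and 31.2%. Both lists were called against the IgG of hypertrophic cells, so only the hypertrophic list had a control of its own condition, and read depth is unknown. Whether the score scales of the lists differ was not tested. Whether the control or the depth bears on these counts and shares was not tested either.

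Far peaks were found on all 21 listed chromosomes. Chromosome 1 held 119, chromosome 2 held 118, chromosome 4 held 100 and chromosome X held 98, while chromosome 12 held 8. As a share of the chromosome's own hypertrophic peaks, X stood highest at 5.28% (Wilson interval 4.35 to 6.39%), followed by chromosome 15 at 3.51% (interval 2.80 to 4.40%), and chromosome 12 lowest at 0.390% (interval 0.198 to 0.767%). X was also the chromosome with the sparsest hypertrophic peaks, 11.6 per Mb, and chromosome 12 the one with the densest, 43.9 per Mb. Per Mb lying more than 50000 bp from quiescent peaks, X had the fewest far peaks, 1.17, chromosome 12 had 1.90, and chromosomes 10 and 20 had the most, 2.24 and 2.22. Chromosome 15 stayed high by both measures, with 2.01 per Mb of such sequence. The 98 far peaks of X had a median score of 66.8, a highest score of 187 and a narrow share of 24.5%, close to the 22.6% of the autosomes. Of the 21 far peaks scoring at least 200, chromosome 17 held 4, no other chromosome held more than 2, and 10 chromosomes, X among them, held none.

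**Figure D5:**
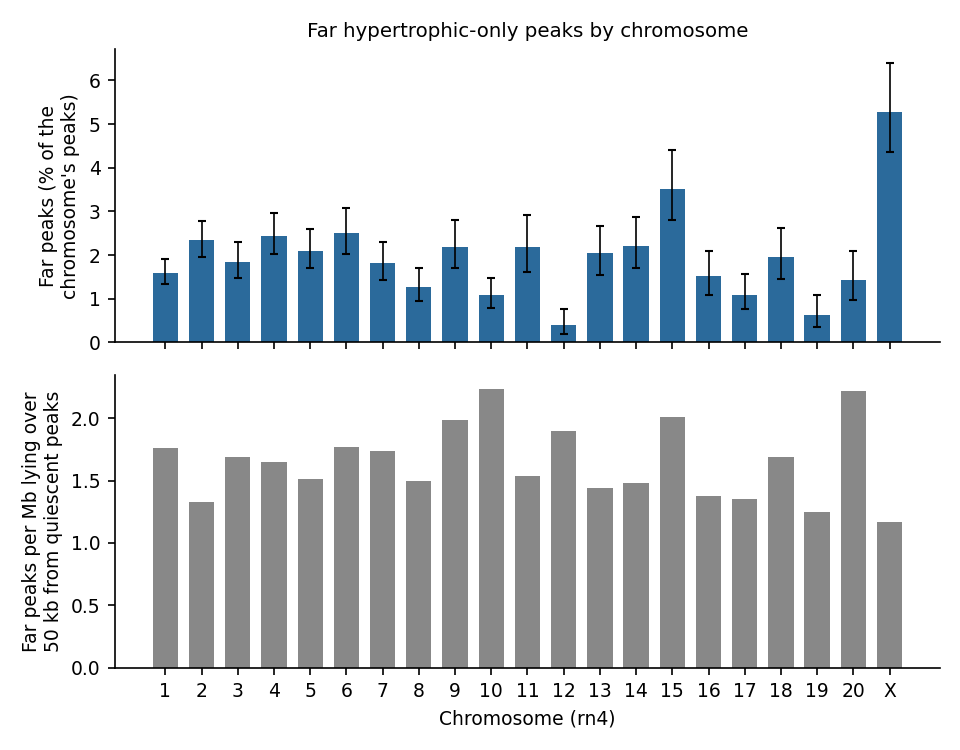
Upper panel: far hypertrophic-only peaks as a percentage of all hypertrophic peaks of each chromosome, with Wilson 95% intervals. Lower panel: far peaks per Mb of sequence lying more than 50 kb from quiescent peaks, without intervals. X is highest above, at 5.28%, and lowest below, at 1.17 per Mb.

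Along the chromosomes, far peaks were thinner at the very ends than hypertrophic peaks in general. Each chromosome was cut into 10 equal pieces up to its last hypertrophic peak. The first piece held 8.70% of far peaks and 10.9% of all hypertrophic peaks, and the last held 6.65% and 13.0%. The second went the other way, with 10.4% and 9.53%. The sixth held the most, 12.03% of far peaks against 8.13% of all. Far peaks can lie only where quiescent peaks are sparse, and these shares were not set against the sequence open to them. In windows of 1 Mb, 867 of the 2706 windows with a hypertrophic peak held a far peak, and 595 of these held 1. Only 10 windows held 5 or more. The window on chromosome 3 from 110000001 to 111000000 was the sparsest of them, with 5 far peaks among 7 hypertrophic and 4 quiescent peaks; its run from 110195399 to 110207395 had scores of 120 (119.92), 50.3, 68.5 and 57.3. The window on chromosome 15 from 68000001 to 69000000 had 5 far peaks among 19 hypertrophic and 6 quiescent peaks, and the peak of score 304 lay in it.

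Counted per far peak, the quiescent peaks nearest to far peaks were on the weak side of their list. Their median score was 107 and their median height 12, against 126 and 16 for all quiescent peaks, and 61.3% of them (interval 58.6 to 64.0%) overlapped a hypertrophic peak, against 71.0%. A quiescent peak nearest to several far peaks was counted for each of them, and the interval does not allow for this. By the rule these peaks border regions without quiescent peaks, and they were not compared with other quiescent peaks in such positions. With quiescent peaks under a score of 100 left out as neighbours, 4814 hypertrophic peaks would count as far instead of 1264. That count includes any that overlap a quiescent peak scoring under 100.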

How the data were processed

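The submitters' processing notes name CASAVA 1.8, TopHat, MACS 1.4 and rn4, without parameters. The authors deposited 1 peak list and 1 summit list per condition, and the list names give the negative control as what each was called against. The deposited score is in the layout of MACS 1.4 output, and the deposited summit height is a signal of unstated scaling; neither was rescaled. Depth is unknown beyond summit heights, since no source used here gives read totals. All deposited value columns were used and 0 were left out. The rule was applied in Python 3.11.15 (numpy 2.4.6, pandas 2.3.3, scipy 1.17.1, matplotlib 3.10.9) and gave the same 1264 regions with bedtools 2.31.1. On a thinned copy of the hypertrophic list it found 200 of 200 planted far peaks, with 0 of 65539 misclassified. Intervals (95%, Wilson for shares, exact binomial for medians) treat peaks as independent, cover counting error only and describe the lists.

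Named regions were the 10 highest scores, tallest, widest and farthest peaks, the 10 runs with the most members, and the 3 peaks on each side of the limit; other windows, stretches and recurring pairs were singled out after their values were seen. Members and lists were chosen with earlier results of these data known. Alternatives were other distances, summit distances, score minimums, joined peaks and run gaps. Gene tables of another rat assembly were not used.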

Additional observations from a re-analysis of the deposited data

How the results depend on the processing

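The number of far peaks, 1264, followed the distance and score rules: it was 6962 with more than 10000 bp, 439 with more than 100000 bp, 4814 when only neighbours scoring at least 100 counted, and 218 when far peaks had to score at least 100. Under these 4 settings in turn, the median width was 244, 192, 235 and 252 bp, and the share in runs was 43.3%, 19.6%, 47.8% and 14.7%. The ratio of far peaks of the quiescent list to those of the hypertrophic list was 1.41, 3.17, 1.70 and 4.69, above 1 in each. When only neighbours scoring at least 100 counted, a peak was also far where it overlapped a weaker peak of the other list. The values of that setting, 1.70 among them, are thus not limited to peaks found in 1 list only. Both lists had the IgG of hypertrophic cells as control in every setting. The median score was 69.9 with more than 10000 bp, 74.6 with neighbours of at least 100 and 131 with far peaks of at least 100, and the median height was 12 and 14 in the last 2. Distances from summit to summit gave 1276 peaks, and joining peaks within 1000 bp gave 1234; both left the other values within their intervals, except the share in runs, 23.8% after joining. That share was 14.9% with run gaps of 10000 bp and 32.4% with 100000 bp. The narrow share was 17.8% with a limit of 140 bp and 26.9% with 160 bp, and from 11.6% (more than 10000 bp) to 31.4% (more than 100000 bp) over the other settings; these were added after the data were seen. No paired analysis was possible because each condition has 1 list and no replicate carries values of its own. Unknown read depth limits what the absence of a quiescent peak can show: none was listed at a score of 50 or more.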
